A study of Mus musculus with 4 samples.

Results

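The mitochondrial ribosomal protein genes were followed in adult mouse jejunal epithelium of control mice and of mice labelled as lacking Hnf4a and Cdx2. They were the entries of the deposited expression table whose symbol starts with Mrpl or Mrps followed by a digit and whose mean over the 4 libraries reached 1 FPKM (fragments per kilobase of transcript, scaled to the library's mapped fragments). This gave 75 genes of the 10883 tested, 47 with a large subunit symbol (Mrpl) and 28 with a small subunit symbol (Mrps). All 75 entries that matched the symbols passed the level filter, the lowest being Mrpl17 with a mean of 4.94 FPKM. The entry for Mrps6 also carries the symbol Slc5a3. In the files of single libraries, where both are listed apart, Mrps6 stood at 18.1 and 14.3 FPKM in the controls and 31.2 and 22.4 FPKM in the libraries labelled double knockout, and Slc5a3 stayed between 0.835 and 1.39 FPKM.

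The study compared 2 control mice, which were Cre-negative, with 2 mice labelled Hnf4a-del;Cdx2-del, described as independent biological replicates. Both groups were adult, of a mixed 129xC57/Bl6xSvJ background, and both received 1 mg of tamoxifen on 5 days, which activates an inducible Cre and recombines the conditional alleles in the mutant mice. The sources used here do not give the age beyond adult, or the promoter that drives Cre. RNA came from epithelium released from the jejunum with EDTA and was read as single-end reads of 75 bases.

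Mitochondria carry their own ribosome, built from a large and a small subunit, which translates the few proteins encoded by mitochondrial DNA, all of them parts of the respiratory chain and ATP synthase. The ribosomal RNAs are transcribed inside the organelle, whereas every ribosomal protein is encoded in the nucleus, made in the cytosol and imported. Some of these proteins have bacterial relatives and others are specific to mitochondria. HNF4A and CDX2 are transcription factors of the intestinal epithelium that activate genes of absorptive enterocytes.

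Of the targeted genes, Hnf4a stood at 156 and 202 FPKM in the controls and at 31.6 and 48.2 FPKM in the libraries labelled double knockout, a log2 fold change of -2.16 ± 0.27 (SE; limma with Benjamini-Hochberg adjustment, adjusted p = 0.0147). Cdx2 stood at 70.9 and 65.2 FPKM in the controls and at 160 and 161 FPKM in the libraries labelled double knockout, a log2 fold change of 1.23 ± 0.15 (limma, adjusted p = 0.0150). The Cdx2 level thus goes against the label of the group, and every direction given here rests on the labels. A gene-level FPKM does not tell whether reads from a deleted part of the gene are missing. Without control 1 or control 2 the adjusted p of Hnf4a was 0.0648 or 0.0885, and with any 1 library left out that of Cdx2 was 0.0503 to 0.0887.

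All 10 epithelial markers were present, between 146 and 3496 FPKM. Of these, 1 was called higher and 2 lower, among them Krt19, a keratin, with a mean of 718 FPKM in the controls and 2507 FPKM in the libraries labelled double knockout (1.80 ± 0.22, adjusted p = 0.0150), and Epcam, an adhesion protein, with 1208 and 529 FPKM (-1.19 ± 0.20, adjusted p = 0.0300). With any 1 library left out Epcam no longer passed (0.0843 to 0.121), and Krt19 no longer passed without control 1, control 2 or double knockout 2 (0.0730, 0.0719 and 0.0621). Of 7 immune markers tested, 1 was called, Itgam, lower at 2.23 and 2.77 against 0.706 and 0.549 FPKM (adjusted p = 0.0410, or 0.0955 to 0.163 with any 1 library left out). The markers of immune cells summed to 30.2 and 64.7 FPKM in the controls and to 18.3 and 36.4 FPKM in the other 2 libraries. Within these sums Lyz2, which was not called, had 8.60 and 34.8 against 1.86 and 2.66 FPKM. Of the 7 tested, 3 had log2 fold changes above 0 (Cd3e 0.25, Cd3g 0.27 and Nkg7 0.40) and 4 below. Those of stroma and endothelium summed to between 4.44 and 9.71 FPKM, and those of smooth muscle and nerve to between 2.40 and 3.98 FPKM. The most abundant of these that were tested, Vim, a filament protein of mesenchymal cells, and Tagln, of smooth muscle, had 4.46 and 4.31 against 3.24 and 3.81 FPKM (-0.25, adjusted p = 0.391) and 1.60 and 2.13 against 2.18 and 2.14 FPKM (0.15, adjusted p = 0.669). The endothelial marker Cdh5 and the B-cell marker Cd79a were at or near 0, at most 0.013 and 0.134 FPKM. The crypt and cell cycle markers summed to 584 and 298 FPKM in the controls and to 526 and 595 FPKM in the libraries labelled double knockout, so control 2 stood lowest, with Olfm4, a crypt stem cell marker, at 337 and 135 against 336 and 346 FPKM.

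The promoters of the 2 members with the highest and the 2 with the lowest log2 fold change are shown here because the levels of these genes lay apart between the groups in opposite directions. Each is the RefSeq sequence (GRCm38.p6, plus strand) from 250 bases before to 50 bases after the annotated start, in lower case, with capitals marking a match to any of the 6 motifs listed after them. Mrps27 lies at chr13:99344536-99344835, Mrps10 at chr17:47368947-47369246, Mrpl34 at chr8:71464676-71464975 and Mrps15 at chr4:126046678-126046977. The first pair was higher in the libraries labelled double knockout and the second pair lower.
Mrps27: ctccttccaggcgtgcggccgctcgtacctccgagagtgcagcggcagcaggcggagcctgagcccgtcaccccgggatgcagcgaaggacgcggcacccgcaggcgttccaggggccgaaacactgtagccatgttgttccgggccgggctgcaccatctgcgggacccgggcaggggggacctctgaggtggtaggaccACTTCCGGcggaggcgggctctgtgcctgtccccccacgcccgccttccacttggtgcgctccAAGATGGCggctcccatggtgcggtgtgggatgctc
Mrps10: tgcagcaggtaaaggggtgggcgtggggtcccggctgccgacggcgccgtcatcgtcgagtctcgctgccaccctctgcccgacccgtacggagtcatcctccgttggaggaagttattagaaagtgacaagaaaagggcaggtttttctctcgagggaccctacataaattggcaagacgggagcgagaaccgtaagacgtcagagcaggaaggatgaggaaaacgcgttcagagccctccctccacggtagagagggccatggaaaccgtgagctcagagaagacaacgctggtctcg
Mrpl34: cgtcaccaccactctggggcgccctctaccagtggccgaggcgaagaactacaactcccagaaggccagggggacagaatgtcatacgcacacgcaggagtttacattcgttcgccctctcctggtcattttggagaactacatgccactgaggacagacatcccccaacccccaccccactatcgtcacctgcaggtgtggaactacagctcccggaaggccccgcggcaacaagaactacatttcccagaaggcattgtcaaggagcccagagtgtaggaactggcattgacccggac
Mrps15: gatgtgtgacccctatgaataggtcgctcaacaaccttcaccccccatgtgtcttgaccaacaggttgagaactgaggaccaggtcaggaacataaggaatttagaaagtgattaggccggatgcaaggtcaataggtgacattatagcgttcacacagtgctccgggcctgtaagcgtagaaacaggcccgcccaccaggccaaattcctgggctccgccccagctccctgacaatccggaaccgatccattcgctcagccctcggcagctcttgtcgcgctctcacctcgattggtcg

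Only the Mrps27 window held matches, an ETS core that begins 49 bases before the start and a YY1 core that begins at base 15 of the transcript. Promoter windows of this length were found for 66 of the 75 members and for 8790 of the 10883 genes tested. They were searched on both strands, and a gene with several windows was counted once, with a match in any of them. The ETS core CCGGAAGT, bound by factors such as GABP, was found for 12 members (18.2%). It was found for 9.86% of the genes tested that had a window and for 4.31% of all RefSeq genes. The YY1 core AAGATGGC was also found for 12 members (18.2%), against 5.71% and 3.19%. The NRF1 core GCGCATGC, a motif of nuclear respiratory factor 1, was found for 8 (12.1%), against 6.22% and 3.05%. The E-box CACGTG was found for 5 (7.58%), against 12.2% and 8.09%. For the factors named in the genotype, the CDX core TTTATNG was found for 9 members (13.6%), against 8.51% and 12.5%. The HNF4 core CAAAGTCCA was found for 0, against 0.603% and 0.555%. With shares this low, 0 matches among 66 members cannot show whether the members hold the HNF4 core less often. The median log2 fold changes of members with and without a match were 0.36 and 0.32 for the ETS core, 0.32 and 0.32 for the YY1 core, 0.35 and 0.31 for the NRF1 core and 0.31 and 0.33 for the CDX core. A match is a run of letters and not a shown binding site.

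Most mitochondrial ribosomal protein genes had higher values in the libraries labelled double knockout, by small amounts, and a few had lower values, among them Mrps21, Mrpl34, Mrps36 and Mrps15, which are abundant, and Mrpl15, Mrpl49 and Mrps25, which are not. No single member passed the test: by limma on log2(FPKM + 1), with p-values adjusted over all 10883 genes, 0 of 75 members were called at 0.05, whereas 9.57% of all genes were called, 3.77% higher and 5.80% lower. The lowest adjusted p of a member was 0.0533, for Mrps10. At an unadjusted p under 0.05, 26 members were higher and 3 lower, that is 34.7% and 4.00%, where 13.3% and 15.0% of all genes were. The 26 became 17 without control 1, 7 without control 2, 11 without double knockout 1 and 8 without double knockout 2, where 12.7%, 10.0%, 9.78% and 8.89% of all genes were higher at that threshold. Without control 2 the members' share was thus no greater than that of all genes. In the authors' deposited table of Cuffdiff comparisons, 0 of 75 members were called, against 13.2% of the 11594 entries with a test, and 7 had an unadjusted p under 0.05, 6 of them higher. In bulk tissue, fewer cells of a type and less RNA per cell cannot be told apart.

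The log2 fold change, libraries labelled double knockout minus control, was above 0 in 64 of the 75 members (85.3%) and in 52.3% of all genes tested. Its median was 0.33 over the members, a 1.26-fold difference on the FPKM + 1 scale, and 0.02 over all genes, and members ranged from -0.63 to 0.82. In 55 members (73.3%) both libraries labelled double knockout lay above both controls, against 31.2% of all genes. In 8 members (10.7%) both lay below, against 29.5%, and in the remaining 12 the groups overlapped. Among the 7332 genes whose mean level lay within the range of the members, the median was 0.02 and 31.5% had both libraries higher. With the FPKM of each library's own file, which were scaled separately, the median of all genes moved to 0.17 and 68 of the 77 members listed there were above 0. On that scale 482 genes were called higher and 451 lower, where the series table gave 410 and 631.

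**Figure D1:**
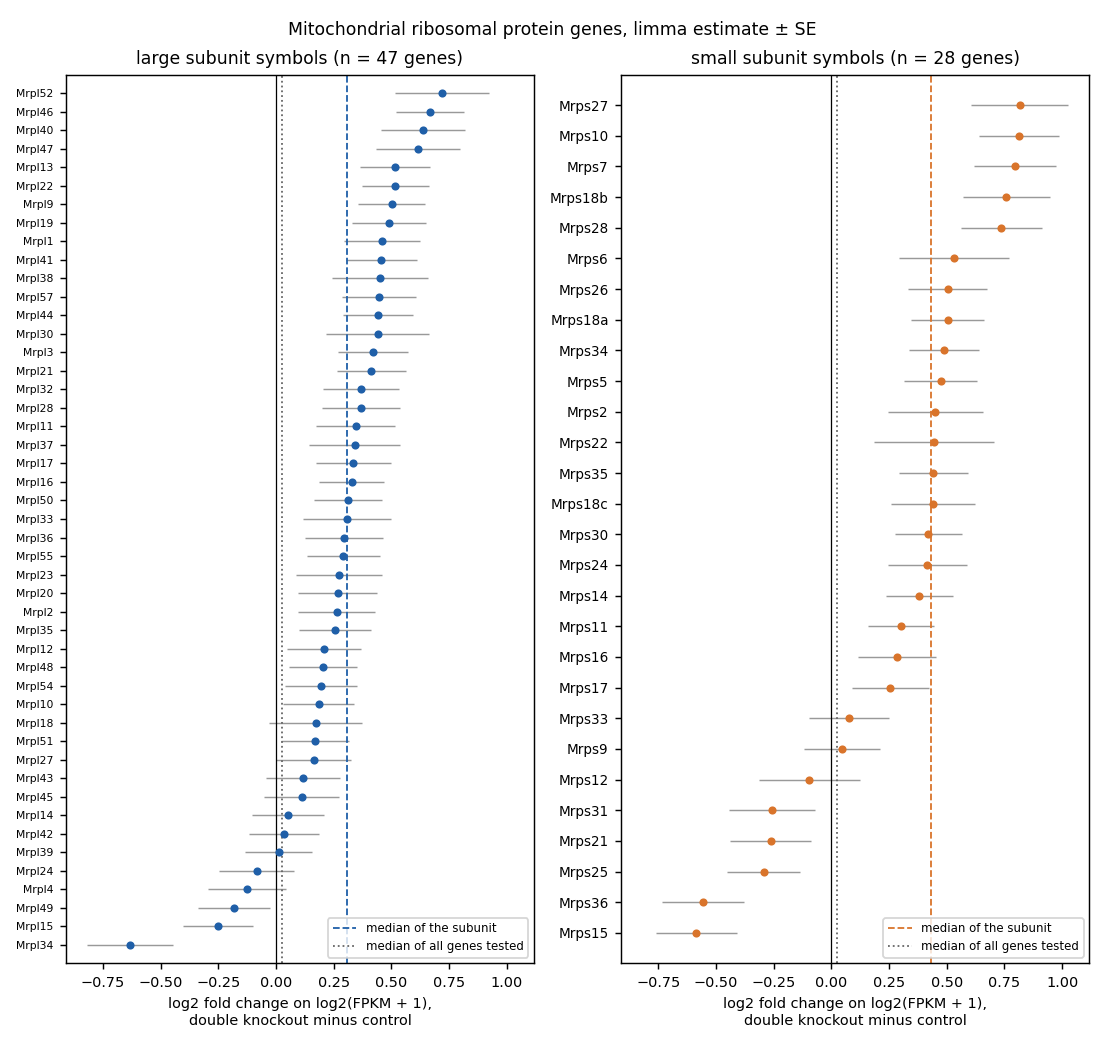
Log2 fold change on log2(FPKM + 1), libraries labelled double knockout minus control, for each of the 75 mitochondrial ribosomal protein genes, with a panel for each subunit, lines of 1 SE from limma to either side, and the medians of the subunit and of all genes tested. The values run from -0.63 for Mrpl34 to 0.82 for Mrps27, with 64 points to the right of 0.

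The difference between the groups was larger than the difference between replicates for most members. The median absolute log2 difference was 0.15 between the 2 controls, 0.12 between the 2 libraries labelled double knockout and 0.37 between the group means. In 51 members the difference between groups exceeded both replicate differences. These values were not taken over all genes, so they do not show a trait particular to the members. Control 2 was the lower control in 50 members, with a median difference from control 1 of -0.09 on the log2 scale over all members, and it was also the library with the lowest crypt and cell cycle markers. Without control 2 the median log2 fold changes were 0.27 for the large subunit and 0.36 for the small, and 62 members were above 0. The part of the crypt, epithelial and immune markers in the result was not tested.

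The mean level of the most abundant member was 33.2 times that of the least abundant. Across members, Spearman's rho was 0.979 between the controls, 0.970 between the libraries labelled double knockout, and 0.930 to 0.945 between the groups, as a description across genes that share libraries and gene lengths. In the sum over all members, the controls held 2873 and 2821 FPKM and the libraries labelled double knockout 3350 and 3366 FPKM, which was 0.445% and 0.424% against 0.486% and 0.523% of the summed table. The highest value of a gene lay in control 1 for 7 members, in control 2 for 6, and in the libraries labelled double knockout 1 and 2 for 24 and 38.

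**Figure D2:**
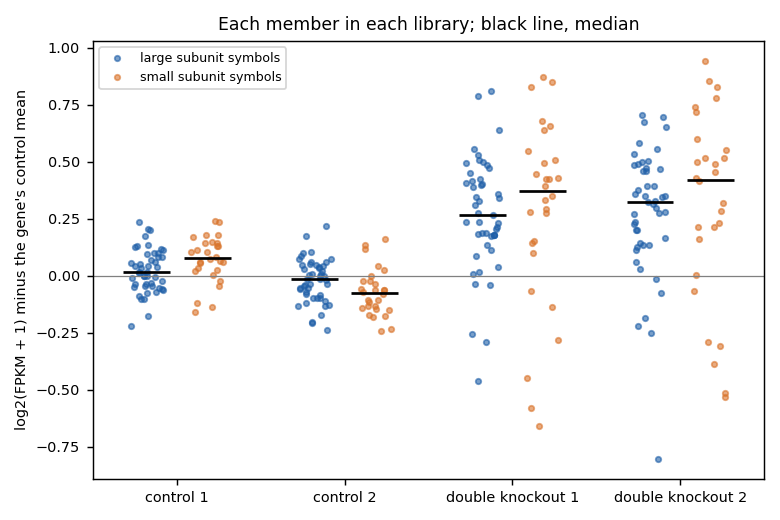
Each member's log2(FPKM + 1) minus the mean of its 2 controls, by library on the horizontal axis and by subunit in colour, with a line at each median. The control values centre near 0 because the controls form the reference, and the medians of the libraries labelled double knockout were 0.27 and 0.33 for the large subunit and 0.37 and 0.42 for the small.

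Both subunits had median log2 fold changes above 0. Of the 47 large subunit genes, 42 had a log2 fold change above 0, 36 had both libraries labelled double knockout above both controls and 3 had both below, with a median of 0.31 or 1.24-fold. The corresponding counts of the 28 small subunit genes were 22, 19 and 5, with a median of 0.43 or 1.35-fold. The shares with both libraries above were 76.6% for the large and 67.9% for the small subunit, against 31.2% of all genes. Those with both below were 6.38% and 17.9%, against 29.5%. At an unadjusted p under 0.05, 14 large subunit genes were higher and 1 lower, and 12 small subunit genes were higher and 2 lower. The shares were 29.8% and 2.13% for the large subunit and 42.9% and 7.14% for the small. Among all genes they were 13.3% and 15.0%. The difference of the medians, large minus small, was -0.12, with no test because 2 libraries against 2 allow no small exact p.

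Per library, the median level of the large subunit genes was 30.8 and 27.3 FPKM in the controls and 39.8 and 39.0 FPKM in the libraries labelled double knockout. That of the small subunit genes was 27.0 and 22.7 FPKM against 34.3 and 35.6 FPKM. Both medians lay apart between the groups. On log2(FPKM + 1) the large subunit median exceeded the small by 0.18 and 0.26 in the controls and by 0.21 and 0.13 in the libraries labelled double knockout, so the gap overlapped between the groups. The ratio of summed FPKM, large over small, was 1.86 and 1.91 in the controls and 1.98 and 1.97 in the others. The sums were 1867 and 1852 against 2226 and 2234 FPKM for the large subunit and 1006 and 969 against 1124 and 1132 FPKM for the small. The small subunit thus had the greater median log2 fold change and the large subunit the greater growth of its sum.

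Some symbols do not follow the place of the protein in the ribosome. Mrps30 and Mrps18a belong to the large subunit by structure, and MRPS36 has been placed in the alpha-ketoglutarate dehydrogenase complex. Mrps30 stood at 17.1 and 15.7 FPKM in the controls against 22.3 and 22.1 FPKM (log2 fold change 0.42, adjusted p = 0.143), and Mrps18a at 30.0 and 25.5 against 39.8 and 39.6 FPKM (0.50, adjusted p = 0.118). The groups did not overlap for either gene. Mrps36 went the other way, with 75.0 and 93.8 FPKM in the controls and 55.7 and 57.7 FPKM in the libraries labelled double knockout (-0.56 ± 0.18 SE, adjusted p = 0.121). With the subunits taken by structure, the median was 0.31 over 49 large subunit genes and 0.44 over 25 small subunit genes. The 47 members with bacterial relatives had a median of 0.33, with 37 higher and 4 lower in both libraries (78.7% and 8.51%). The 27 specific to mitochondria had a median of 0.34, with 18 higher and 3 lower (66.7% and 11.1%). Among all genes 31.2% were higher and 29.5% lower in both libraries.

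Among the proteins of the large subunit, those of highest level are described first. Mrpl12, which forms the stalk that receives translation factors, had 146 and 158 FPKM in the controls and 172 and 179 FPKM in the libraries labelled double knockout. Its groups lay apart, with a log2 fold change of 0.21 and an adjusted p of 0.452. The stalk base proteins Mrpl10 and Mrpl11 were likewise higher in both libraries, at 0.18 and 0.35. Mrpl33, a relative of a small bacterial protein, had 87.1 and 91.3 against 125 and 97.3 FPKM, and Mrpl20 had 84.1 and 96.9 against 103 and 115 FPKM. For both genes the groups lay apart by less than the spread within a group (adjusted p = 0.352 and 0.363).

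The 3 large subunit genes with the greatest difference upward were Mrpl52, Mrpl46 and Mrpl40, all specific to mitochondria. Mrpl52 (mm9 chromosome 14, 55045745 to 55048587, the locus in the authors' deposited table) had 121 and 90.9 FPKM in the controls and 182 and 165 FPKM in the libraries labelled double knockout, a log2 fold change of 0.72 ± 0.20 (SE, adjusted p = 0.0962). It was the second most abundant large subunit gene. Mrpl46 (chromosome 7, 85920226 to 85927975), a protein of the central protuberance, had 26.2 and 24.2 against 39.8 and 41.4 FPKM, a log2 fold change of 0.67 ± 0.15 (adjusted p = 0.0571). Replicates were close and the groups far apart. Mrpl40, also of the central protuberance, had 27.2 and 27.3 against 48.6 and 37.8 FPKM (0.64 ± 0.18, adjusted p = 0.0959), so that its libraries labelled double knockout differed more from each other than its controls did. Mrpl38 and Mrpl48, other proteins of the central protuberance, had smaller log2 fold changes of 0.45 and 0.20.

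Near the peptide exit tunnel, Mrpl22 had 21.03 and 19.5 FPKM in the controls and 29.0 and 29.7 FPKM in the libraries labelled double knockout (0.52, adjusted p = 0.0951). Mrpl23 had 53.1 and 41.5 against 59.9 and 54.2 FPKM (0.27). Both lay apart between the groups. Mrpl24, which also lines the exit, overlapped between the groups at 76.2 and 71.8 against 74.8 and 65.0 FPKM (-0.08). So did Mrpl45, which tethers the ribosome to the inner membrane, at 15.3 and 12.8 against 14.9 and 15.5 FPKM (0.11). These members of the stalk, protuberance and tunnel were chosen after their values were seen.

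Mrpl34 was the large subunit gene with the deepest difference downward. It is the relative of a small bacterial ribosomal protein and lies at chromosome 8, 73988824 to 73989652 (mm9). It had 80.7 and 87.9 FPKM in the controls and 60.8 and 47.8 FPKM in the libraries labelled double knockout, a log2 fold change of -0.63 ± 0.19 (SE, adjusted p = 0.102). The groups did not overlap. Next were Mrpl15 with 24.7 and 22.0 against 19.4 and 19.4 FPKM (-0.25, adjusted p = 0.336) and Mrpl49 with 20.8 and 21.1 against 17.0 and 19.9 FPKM (-0.18, adjusted p = 0.5004). At the low end of level, Mrpl17 had 4.41 and 4.10 against 5.87 and 5.38 FPKM (0.33, adjusted p = 0.252).

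In the small subunit the greatest differences upward were in Mrps27, Mrps10 and Mrps7. Mrps27, a pentatricopeptide repeat protein (chromosome 13, 100114740 to 100185516, mm9), had 12.3 and 8.501 FPKM in the controls and 19.3 and 18.3 FPKM in the libraries labelled double knockout, a log2 fold change of 0.82 ± 0.21 (SE, adjusted p = 0.0795). Mrps10 (chromosome 17, 47505835 to 47515628), a protein of the head of the subunit, had 21.8 and 19.3 against 33.5 and 40.4 FPKM, or 0.81 ± 0.17 (adjusted p = 0.0533). Both genes lay well apart between the groups. Mrps7 (chromosome 11, 115465464 to 115468938), also a head protein, had 23.7 and 19.2 against 39.8 and 35.7 FPKM, or 0.80 ± 0.18 (adjusted p = 0.0579). In the authors' deposited table the q-values of these 3 genes were 0.114, 0.0910 and 0.0889. When the level filter was raised to 5 FPKM, Mrps10 passed, with an adjusted p of 0.0486.

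The most abundant small subunit genes did not share a direction. Mrps21, the relative of a bacterial small subunit protein, had 168 and 174 FPKM in the controls and 155 and 131 FPKM in the libraries labelled double knockout (-0.26, adjusted p = 0.382). Mrps18c had 72.4 and 76.9 against 90.6 and 114 FPKM (0.44, adjusted p = 0.1995), and Mrps16 had 51.9 and 61.4 against 72.3 and 65.7 FPKM (0.28, adjusted p = 0.335). Each of the 3 lay apart between the groups. Mrps18b, the third gene of the Mrps18 family, had 22.6 and 17.6 against 32.0 and 36.9 FPKM, or 0.76 ± 0.19 (adjusted p = 0.0736). All 3 family members, Mrps18a, Mrps18b and Mrps18c, were thus higher in both libraries, whichever subunit they serve.

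Mrps15, whose bacterial relative binds ribosomal RNA early in assembly, was among the lower genes. At chromosome 4, 125724171 to 125732780 (mm9), it had 63.9 and 52.2 FPKM in the controls and 36.3 and 40.1 FPKM in the libraries labelled double knockout, or -0.59 ± 0.18 (SE, adjusted p = 0.107, q = 0.228 in the authors' deposited table). Mrps25 had 12.7 and 10.9 against 9.51 and 9.33 FPKM (-0.29, adjusted p = 0.295). The groups lay apart for both genes. Mrps31 had 36.5 and 34.7 against 25.8 and 34.0 FPKM (-0.26, adjusted p = 0.425).

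**Figure D3:**
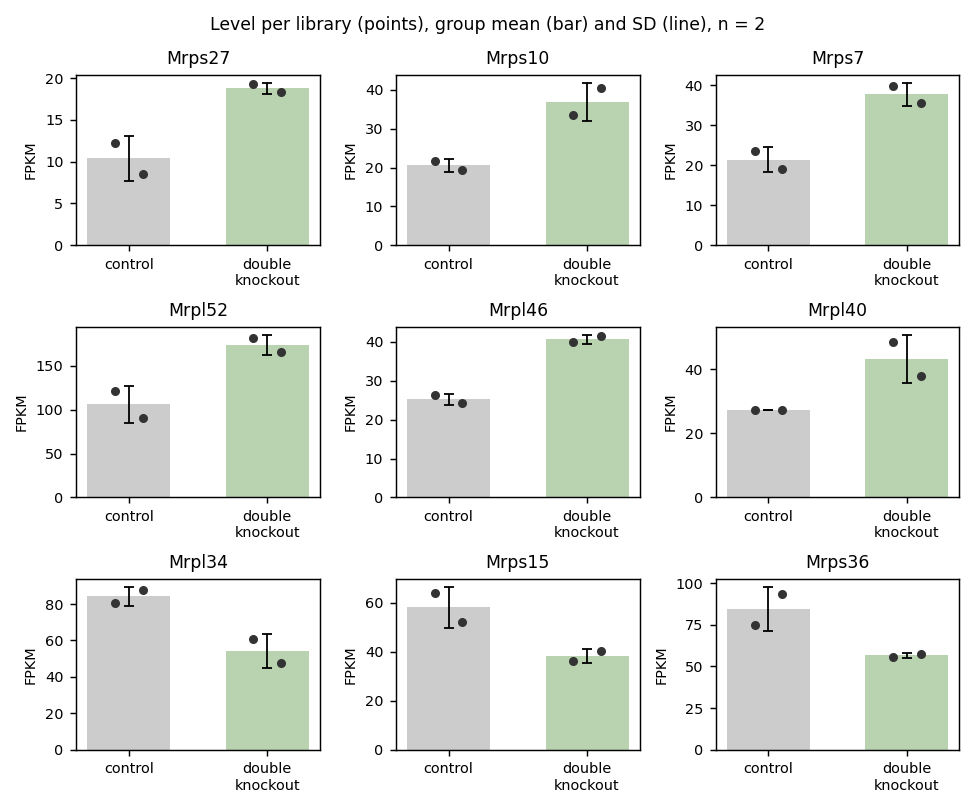
FPKM of 9 members, with a point for each library, a bar for the group mean and a line for the SD (n = 2 per group), each panel on its own axis from 0. Mrps27, Mrps10, Mrps7, Mrpl52, Mrpl46 and Mrpl40 lie higher in both libraries labelled double knockout than in both controls, and Mrpl34, Mrps15 and Mrps36 lie lower in both.

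Other members had smaller differences than the genes of greatest difference upward in the same subunit. At an unadjusted p under 0.05, the higher large subunit genes also included Mrpl1, Mrpl3, Mrpl9, Mrpl13, Mrpl19, Mrpl21, Mrpl41, Mrpl44, Mrpl47 and Mrpl57, with log2 fold changes of 0.41 to 0.62. Mrpl3 and Mrpl13 are core proteins kept from bacteria, and Mrpl44 resembles a ribonuclease. The higher small subunit genes also included Mrps5, Mrps14, Mrps26, Mrps28, Mrps34 and Mrps35, at 0.38 to 0.74, of which Mrps28 had 21.1 and 17.4 against 30.4 and 34.8 FPKM (adjusted p = 0.0666). The joined entry of Mrps6 had 23.9 and 21.8 against 41.4 and 27.0 FPKM (0.53, adjusted p = 0.228). The groups overlapped for Mrpl4, Mrpl14, Mrpl18, Mrpl24, Mrpl39, Mrpl42, Mrpl43, Mrpl45, Mrps9, Mrps12, Mrps22 and Mrps33. The closest values were those of Mrpl39, at 15.9 and 16.8 FPKM in the controls and 16.8 and 16.2 FPKM in the libraries labelled double knockout (0.01). Mrps12, of the decoding centre, had 36.1 and 28.0 against 34.1 and 25.8 FPKM (-0.09). Mrps22 had 21.5 and 16.5 against 21.1 and 32.1 FPKM, so that its libraries labelled double knockout lay far from each other.

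**Figure D4:**
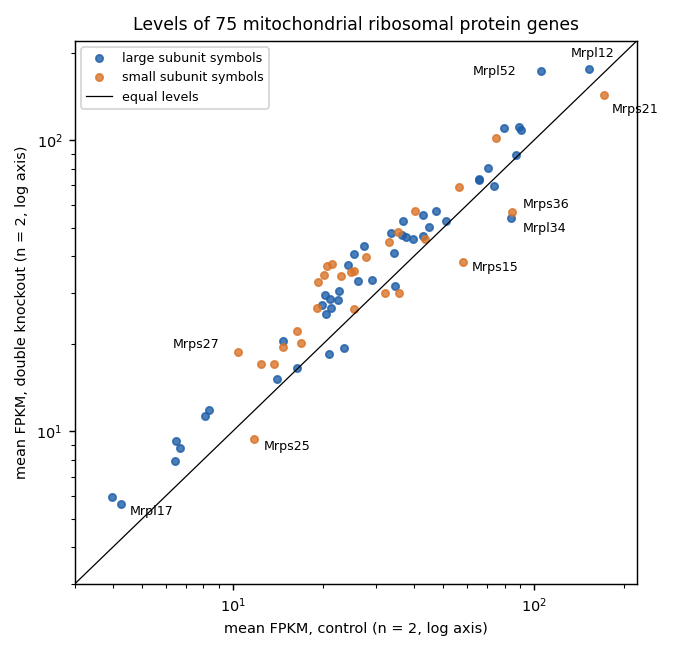
Mean FPKM of each member in the libraries labelled double knockout (n = 2) against the controls (n = 2), both axes logarithmic, with the line of equal levels. Most points lie above the line, and Mrpl34, Mrps36 and Mrps15 lie furthest below it, at control means between 58.1 and 84.4 FPKM.

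The members of lower level had the higher median. The 37 members above the median level had a median log2 fold change of 0.26, with 8 higher and 3 lower at an unadjusted p under 0.05. The 38 members at or below it had a median of 0.42, with 18 higher and 0 lower. The shares were 21.6% higher and 8.11% lower above the median level, and 47.4% higher at or below it. Among all genes 13.3% were higher and 15.0% lower at that threshold. This is a description across genes that share libraries, and the log2(FPKM + 1) scale understates differences of low genes.

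Members lay on 17 chromosomes, with at most 9 on a single one, chromosome 11. In the GENCODE M21 annotation (GRCm38), 33 of the 75 members (44.0%) had a neighbouring gene on the opposite strand whose start lay within 1000 bases, against 17.2% of the genes tested. The protocols do not state whether counting used strand, so reads from overlapping neighbours may not be told apart. The 28 partners with an entry of their own, 2 of them members themselves, had a median log2 fold change of 0.09. Of these partners 18 were above 0, where 52.3% of all genes were, and 0 were called by limma, against 9.57%. The members with a partner had a median of 0.41 and those without 0.30. Mrpl46 and Mrps11 start 412 bases apart, a pair of members, with log2 fold changes of 0.67 and 0.30. Mrps7 starts 126 bases from Gga3 (0.80 against -0.21), and Mrps27 starts 81 bases from Ptcd2 (0.82 against 0.26). Mrpl49 starts 59 bases from Fau, which encodes a cytosolic ribosomal protein, and both were below 0 (-0.18 and -0.40).

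Other genes of mitochondrial translation were taken from lists made for this work. Of 7 ribosomal proteins of mitochondria listed under other symbols, 1 stands in the table as the member Mrpl57. Of the remaining 6, 4 were above 0 and 0 were called, with a median of 0.33. The highest of them in level, Chchd1, had 67.0 and 73.8 FPKM in the controls and 66.3 and 88.7 FPKM in the libraries labelled double knockout (0.12, adjusted p = 0.729). Of 12 mitochondrial translation factors, 10 were above 0 and 0 were called, with a median of 0.10. Tufm, the elongation factor that brings aminoacylated tRNA, had 93.6 and 81.1 against 115 and 113 FPKM (0.38, adjusted p = 0.207). Of 24 assembly factors, 18 were above 0 and 0 were called, with a median of 0.19. The protease subunit Afg3l2 had 50.3 and 66.4 against 48.8 and 47.7 FPKM (-0.26, adjusted p = 0.434). At an unadjusted p under 0.05 by limma, 3 of the other ribosomal proteins, 1 translation factor and 4 assembly factors (50%, 8.33% and 16.7%) were higher, where 13.3% of all genes were, and 1 assembly factor was lower (4.17%, against 15.0%). For the last pair of lists the higher share is near or below that of all genes.

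The lists of tRNA synthetases, of import and of transcription and biogenesis held 1 called gene each, a smaller share than the 9.57% of all genes. At an unadjusted p under 0.05 by limma, 21.1%, 45% and 5.26% of them were higher. The share was 34.7% of the members and 13.3% of all genes. In both libraries 52.6%, 60% and 31.6% were higher, against 73.3% of the members and 31.2% of all genes. Of 19 mitochondrial tRNA synthetases, 14 were above 0 and 1 was called. Iars2, which charges isoleucine tRNA, rose from 15.3 and 15.1 FPKM to 31.1 and 36.4 FPKM (1.10 ± 0.16 SE, adjusted p = 0.0203). The median of that list was 0.22. Of 20 import genes, 14 were above 0 and 1 was called, with a median of 0.35. Tomm40, the channel of the outer membrane, rose from 22.7 and 22.0 FPKM to 42.3 and 49.9 FPKM (1.01 ± 0.16, adjusted p = 0.0266). Of 19 genes of mitochondrial transcription and biogenesis, 11 were above 0 and 1 was called, with a median of 0.07. That gene was Ppargc1a, a coactivator known to promote mitochondrial biogenesis, which fell from 11.8 and 13.1 FPKM to 2.16 and 2.66 FPKM (-1.98 ± 0.17, adjusted p = 0.00745). The groups lay far apart for all 3 called genes. In the same list Ppargc1b, which was not called, went the other way from Ppargc1a. It had 2.05 and 4.93 against 7.81 and 7.90 FPKM (1.06, limma adjusted p = 0.123). With any 1 library left out, Iars2 and Tomm40 no longer passed, at adjusted p of 0.0523 to 0.102 and 0.0574 to 0.120, and Ppargc1a no longer passed without control 1 (0.0520) or control 2 (0.0568).

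Cytosolic ribosomal proteins and subunits of oxidative phosphorylation were taken by symbol. Of 78 cytosolic ribosomal protein genes, 76 were above 0, 70 were higher in both libraries and 0 were called by limma, 12 being higher at an unadjusted p under 0.05, with a median of 0.45. The share higher in both libraries was 89.7%, against 31.2% of all genes, and the share higher at an unadjusted p under 0.05 was 15.4%, close to the 13.3% of all genes. Their median level was 710 and 520 FPKM in the controls and 869 and 837 FPKM in the libraries labelled double knockout, so that control 2 stood lowest. Without control 2 the median log2 fold change was 0.26, with 74 above 0 and 0 at an unadjusted p under 0.05, and without control 1 it was 0.62. Of 77 nuclear genes for subunits of oxidative phosphorylation, the pathway that the mitochondrial ribosome serves, 31 were above 0, with a median of -0.07. In both libraries 9 were higher and 17 lower (11.7% and 22.1%), both shares below the 31.2% and 29.5% of all genes, and 51 overlapped. By limma 1 was called (1.30%, against 9.57% of all genes). It was Cox7a1, the heart and muscle form of a cytochrome c oxidase subunit, which fell from 555 and 970 FPKM to 93.2 and 142 FPKM (-2.66 ± 0.36 SE, adjusted p = 0.0175). Its adjusted p was 0.0555 without control 1, 0.0766 without control 2 and 0.0540 without double knockout 1. The difference between these lists and the members was not tested. The crypt and cell cycle list had 9 of 13 genes above 0 and a median of 0.22, and all 13 overlapped between the groups.

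**Figure D5:**
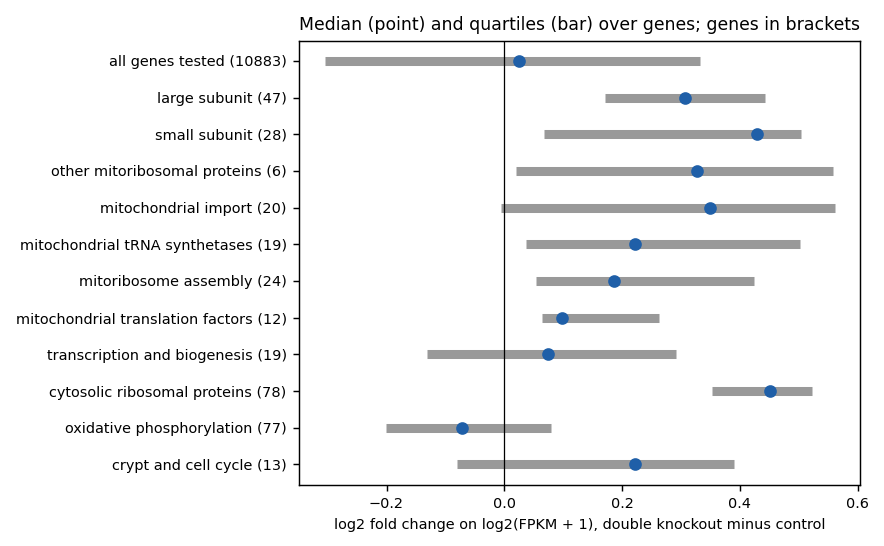
Log2 fold change on log2(FPKM + 1), libraries labelled double knockout minus control, for 12 groups of genes on the vertical axis, with the median over genes as a point and the quartiles as a bar. The medians were 0.31 for large and 0.43 for small mitochondrial subunits, 0.45 for cytosolic ribosomal proteins and -0.07 for oxidative phosphorylation, against 0.02 for all genes tested.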

How the data were processed

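RNA-seq was available for 4 libraries of mouse jejunal epithelium, 2 per group, grouped and numbered by the sample titles. The submitters' processing notes name TopHat2 2.0.9, Cufflinks 2.1.1, Cuffnorm, Cuffdiff and the mm9 build, with no role or order. The deposited values of the series table were taken as FPKM normalised across libraries by the authors; the table does not name its unit. The authors' deposited comparison table gives p-values and q-values and the loci, and the files of single libraries hold FPKM of each library alone per the file headers. No counts are used, so the depth is unknown and no counting interval is given. The summed FPKM per library ran from 643708 to 689276, with 10635 to 10749 symbols at 1 FPKM or more.

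Entries that shared a symbol were summed, and entries made only of short RNA symbols were left out. The 10883 of 22458 symbols whose mean reached 1 FPKM were tested on log2(FPKM + 1) with limma 3.58.1 in R 4.3.3, with an intensity trend, two-sided, with Benjamini-Hochberg adjustment and a threshold of 0.05. The fit was tested on simulated data with planted changes larger than that of any member, so the test does not cover changes of the members' size. This scale shrinks the fold change of genes of low level. Values are libraries or means, with n = 2 per group. Python 3.11.15 with pandas 2.3.3 gave the counts and medians.

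The members, the gene lists and the motifs were chosen with earlier results of these data known. Genes named are the 4 members of highest level and the 3 of greatest difference in each direction in each subunit, Mrps30, Mrps36 and the Mrps18 family, the lowest member, the called gene of greatest difference in each direction of each list or, with none called, its most abundant gene, and Hnf4a and Cdx2. Gene sets by symbol, the markers near 0, the immune markers other than Itgam and Ppargc1b were added after their values were seen. So were the members named by role and those with neighbouring genes. Alternatives changed the pseudocount, the filter, the scaling, the source of the values, the trend, the replicate block, the assignment to subunits and the libraries included. Sequences are from RefSeq and neighbouring genes from GENCODE M21; mm9 loci were not converted.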

Additional observations from a re-analysis of the deposited data

How the results depend on the processing

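The members' medians were above those of all genes under every alternative that was run, and 58 members were above 0 and 9 below 0 in each of the 12 settings in which they were tested (Mrpl17 and Mrpl19 were not tested with the filter at 5 FPKM). The sign of 8 members changed with the setting (Mrpl14, Mrpl18, Mrpl24, Mrpl39, Mrpl45, Mrps9, Mrps12 and Mrps33). With the FPKM of each library alone the median of the large subunit was 0.46, and 0.29 above the median of all genes; the cause of the shift was not tested. With a filter at a mean of 5 FPKM, 7890 genes were tested and 1 member was called, higher. Leaving out 1 library gave 157 to 685 called genes against 1041: 166 without control 1, 157 without control 2, 685 without double knockout 1 and 508 without double knockout 2, with 0 members called each time. With double knockout 2, control 1, control 2 or double knockout 1 left out, 57, 58, 60 and 60 members lay apart on the higher side (40.4%, 42.4%, 42.5% and 40.8% of all genes), an alternative chosen after seeing the data. The difference of the medians, large minus small, stayed between -0.14 and -0.08. Replicate numbers are shared by the labels, which do not say whether the animals were paired. Deviations of same-numbered libraries had r = -0.0048 over all genes and 0.022 over the members, which cannot settle it with 2 libraries per group. With the replicate block, 786 genes and 0 members were called, 13 members were higher at an unadjusted p under 0.05 (11.5% of all genes), and Tomm40, Epcam and Itgam no longer passed (adjusted p = 0.0568, 0.0753 and 0.0903). With no filter Epcam, Krt19 and Itgam did not pass (0.0737, 0.0563 and 0.0515), nor did Itgam with the FPKM of each library alone (0.0644). The 2 libraries per group limit the precision, and the depth behind each value is unknown.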

Other observations

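Mrpl53 and Mrps23 are listed in the series table only in entries shared with neighbouring genes, so they are not among the members. In the files of single libraries, Mrpl53 had 44.8 and 42.8 FPKM in the controls and 48.8 and 60.8 FPKM in the libraries labelled double knockout. Mrps23 had 29.3 and 27.7 FPKM against 34.8 and 35.9 FPKM. Both genes lay higher in both libraries labelled double knockout, on values scaled for each library alone.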
